A study of Mus musculus with 69 samples.

Results

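The genes described here are the 31 that carry cholesterol through a cell: the enzymes that make it, the sensors that switch those enzymes on, and the proteins that bring it in, store it and export it. They were listed by symbol and found by gene identifier among 55964 genes in the count tables. The rule itself uses no measured value, but the list was drawn up with earlier results of these data known. By role they comprise 7 enzymes of the mevalonate arm, 10 enzymes from squalene to the finished sterol, 5 regulators, 3 genes of uptake, 2 of storage and 4 of efflux and transport. Ovary, pituitary and hypothalamus were taken from female mice on a C57BL/6J background in 3 genotypes. WT mice carried the normal Zeb1 gene, Zeb1_200H mice carried 1 copy of a knock-in allele and Zeb1_200M mice carried it on both chromosomes. The knock-in removes binding sites for the miR-200 family, small RNAs that hold down the transcription repressor ZEB1. It is a germ-line change present in every cell, so no tissue was altered alone. The mice came from 2 embryonic stem cell clones, and the labels do not say which clone gave which library. The young cohort was virgin and 8 to 12 weeks old, the older cohort was 28 to 36 weeks old and had been through a breeding trial, and both were collected in proestrus. There were 69 libraries in 18 groups, with 4 mice in each group except young WT pituitary, older 200M pituitary and older 200M hypothalamus, which had 3. In young WT pituitary the titles number the mice 1, 2 and 4 and the count columns 1, 2 and 3, so the column numbered 3 was used as a replicate of its group that is tied to no title.

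Cells make cholesterol from acetyl-CoA by a long chain of enzymes, most of them in the endoplasmic reticulum. When membrane sterol is low, SCAP carries SREBP proteins (from Srebf1 and Srebf2) to the Golgi for release, and SREBP2 then raises transcription of the whole chain, whereas INSIG proteins hold SCAP back when sterol is plentiful. Steroid-making cells of the ovary, above all those of the corpus luteum, use cholesterol as the raw material of progesterone, and in rodents they take most of it from high-density lipoprotein through the receptor SR-BI, the product of Scarb1, and keep it as ester droplets. The chain's promoters are known for sterol regulatory elements and nearby CCAAT boxes. Promoter windows from RefSeq (GRCm38.p6, from 250 bases before to 50 bases after the start) were matched for 24 of the 31 members, and none was matched for Fdps, Fdft1, Sqle, Scarb1, Npc1, Abcg1 and Stard4. The letters TCACNCCAC, a form of the sterol regulatory element, stood on either strand in 1 of 24 member genes (4.17%) and in 1.44% of 27025 genes. CCAAT stood in 19 of 24 (79.2%) against 41.1% of all genes. CAGGTG or CAGGTA, the E-box form that ZEB1 binds, stood in 9 of 24 (37.5%) against 32.5%. The 3 windows below belong to the member with a TCACNCCAC match (Hmgcs1), the member with the smallest p in older pituitary (Msmo1) and the member with the smallest p in young ovary (Sc5d). Each is the 250 bases before the start, 5′ to 3′ on the gene's strand, with matches to the listed motifs on either strand in capitals. Hmgcs1 lies at chr13:119690101-119690350 on the plus strand, Msmo1 at chr8:64733579-64733828 on the minus strand and Sc5d at chr9:42264301-42264550 on the minus strand.
Hmgcs1: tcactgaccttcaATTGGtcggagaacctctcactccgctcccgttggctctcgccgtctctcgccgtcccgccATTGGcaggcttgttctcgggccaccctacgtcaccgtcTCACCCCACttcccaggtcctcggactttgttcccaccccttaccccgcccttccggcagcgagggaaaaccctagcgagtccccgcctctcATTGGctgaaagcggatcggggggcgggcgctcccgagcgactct
Msmo1: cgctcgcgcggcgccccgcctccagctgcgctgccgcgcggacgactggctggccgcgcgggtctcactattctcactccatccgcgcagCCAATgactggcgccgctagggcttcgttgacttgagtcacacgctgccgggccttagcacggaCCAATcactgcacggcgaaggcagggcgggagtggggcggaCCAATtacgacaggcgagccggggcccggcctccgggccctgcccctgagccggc
Sc5d: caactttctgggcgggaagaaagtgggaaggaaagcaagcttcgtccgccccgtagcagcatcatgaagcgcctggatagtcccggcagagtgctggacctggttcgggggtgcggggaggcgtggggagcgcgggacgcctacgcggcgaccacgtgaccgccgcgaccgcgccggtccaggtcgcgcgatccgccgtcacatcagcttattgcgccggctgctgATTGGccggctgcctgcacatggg
In Hmgcs1, which encodes the synthase at the head of the mevalonate arm, the TCACNCCAC match began 137 bases before the start and CCAAT matches began 237, 176 and 45 bases before it. Msmo1 had CCAAT matches 160, 96 and 55 bases before its start and a CAGGTG or CAGGTA match from base 23 after it. Sc5d had a CCAAT match 24 bases before its start. A match is only a run of letters.

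Library depth ran from 6337205 to 14655095 counts in ovary, from 4527753 to 13342430 in pituitary and from 3321845 to 13917738 in hypothalamus. All levels are CPM, the counts of a gene per 1000000 counts of its library, with each library's total first multiplied by its TMM normalization factor. Replicates are different mice. The granulosa cell list (7 markers) summed to 3045 to 6405 CPM in young and older WT ovary against 48.9 to 68.7 CPM in WT pituitary. The neuron list (6 markers) summed to 2793 to 3492 CPM in WT hypothalamus. In older ovary, the oviduct list (Ovgp1, Foxj1 and Pax8) summed to 3086 CPM in 200M replicate 3 and 3050 CPM in 200H replicate 4, against at most 699 CPM in the others, and the adipocyte list reached 1759 CPM in 200M replicate 3. The results of older ovary were therefore recomputed without these libraries. Zeb1 itself did not pass the test in ovary (log2 fold change of 200M against WT -0.06 ± 0.06 SE young and -0.22 ± 0.16 older) and rose in 200M pituitary (0.52 ± 0.06 young, 0.55 ± 0.09 older).

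In young ovary, the genes of cholesterol handling were mostly level between WT and 200M mice, with Sc5d and Scarb1 lower. Both fell with an adjusted p under 0.05 (edgeR's quasi-likelihood test, Benjamini-Hochberg over all genes tested), and no member rose. These were 2 of 31 members (6.45%), set against 2.58% of the 19250 genes tested, with 0.878% of genes called higher and 1.70% called lower. Over the 31 members the median log2 fold change was -0.04, from -0.60 to 0.22, and that of all genes was 0.01. At an unadjusted p under 0.05 there were 7 members, and DESeq2 called 2. Of all 19250 genes tested, 3114 had such a p, and DESeq2 called 606 genes.

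Sc5d encodes the desaturase of a late step in sterol ring synthesis (Ensembl ENSMUSG00000032018, minus strand, chr9:42251595-42264256 in GRCm38). Its level was 295, 249.6, 287 and 234 CPM in the WT libraries and 189.8, 177, 144 and 193 CPM in 200M. Every 200M library was below every WT library, and the fall was 1.52-fold (log2 fold change -0.60 ± 0.10 SE, adjusted p = 0.00811, edgeR). The call held when any single library was left out.

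Scarb1, the lipoprotein receptor named above (ENSMUSG00000037936, minus strand, chr5:125277087-125341094), stood at 336, 318, 344 and 338 CPM in WT. In 200M it stood at 228, 292, 195 and 266 CPM, again below WT in every library. The fall was 1.36-fold (log2 fold change -0.45 ± 0.10 SE, adjusted p = 0.0335, edgeR), and it lost its call when any of 6 of the 8 libraries was left out in turn. In bulk tissue, fewer cells that express a gene and less of its RNA in each cell cannot be told apart.

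**Figure D1:**
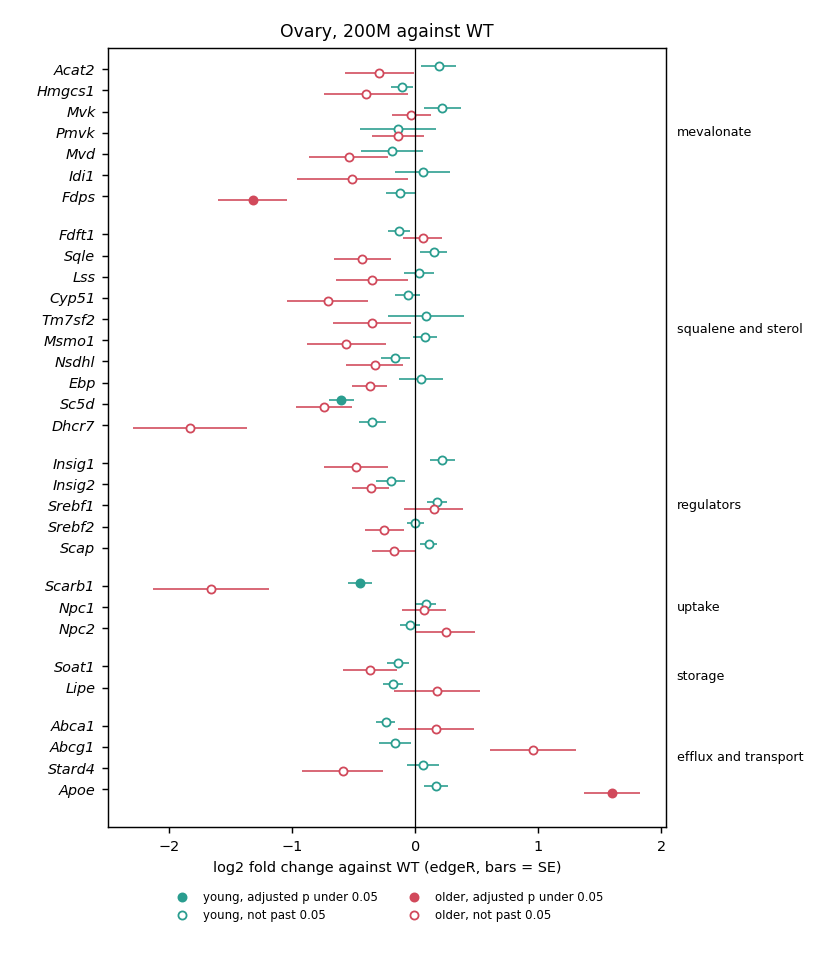
Log2 fold change of 200M against WT in ovary for each of the 31 members, grouped by role, with young and older cohorts in separate colours; points are edgeR estimates, bars are standard errors and filled points passed an adjusted p of 0.05. Filled points are Sc5d and Scarb1 (young) and Fdps and Apoe (older), and the older estimates lie left of zero for 23 of 31 members.

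A wider look at separation between groups gave 5 members whose 200M libraries were all below the WT libraries (16.1% of 31) and 0 whose libraries were all above. Over all genes tested, 4.76% were wholly below and 4.72% wholly above. Beside Sc5d and Scarb1 the 5 were Dhcr7, the last reductase of the pathway, Lipe, the hormone-sensitive lipase that frees stored cholesterol ester, and Abca1, the pump that loads cholesterol onto apolipoproteins. Their log2 fold changes were -0.35 ± 0.11 SE for Dhcr7, -0.18 for Lipe and -0.24 ± 0.08 SE for Abca1, with adjusted p of 0.115, 0.308 and 0.124 in edgeR's test. None of these 3 passed. Abca1 stood at 838, 675, 727 and 672 CPM in WT and 603, 670.4, 590.0 and 606 CPM in 200M, so that its groups came within a few CPM of each other.

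None of the 5 regulators passed in young 200M ovary. Insig1, the sterol sensor that is itself an SREBP target, stood at 40.05, 46.8, 36.4 and 41.1 CPM in WT and 50.5, 41.9, 43.6 and 55.1 CPM in 200M, overlapping groups with a log2 fold change of 0.22. Srebf2, the gene of the factor that drives the chain, stood at 98.5, 97.7, 97.2 and 101 CPM in WT and 106, 104, 91.2 and 92.9 CPM in 200M, and its adjusted p was 0.994 in edgeR's test. The groups overlapped for Srebf2.
Srebf1, whose product mainly drives fatty acid synthesis, stood at 29.96, 34.8, 32 and 31.3 CPM in WT and 35.9, 35.1, 34.4 and 40.1 CPM in 200M (0.18 on the log2 scale). Insig2 stood at 24.6, 20.6, 24.9 and 24.4 CPM in WT and 25, 19.7, 18.4 and 19.6 CPM in 200M (-0.20). Scap, the escort of SREBP, stood at 164, 154, 172 and 149 CPM in WT and 172, 182, 155 and 182 CPM in 200M (0.11). For all 3 the WT and 200M ranges overlapped, although the 200M values of Srebf1 and Scap lay mostly in the upper end. Among the enzymes, those with the largest unadjusted p were Ebp, the sterol isomerase (log2 fold change 0.05), and Lss, the lanosterol synthase (0.03).

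In young 200H ovary no member passed edgeR's test against WT. There, 0.0051% of 19621 genes passed (1 gene), 3 members had an unadjusted p under 0.05, and DESeq2 called 2, Sc5d and Scarb1. Of all genes tested, 1384 had such a p, and DESeq2 called 76 genes. Sc5d stood at 197, 191, 222 and 150.4 CPM in 200H, below every WT library (log2 fold change -0.48 ± 0.11 SE, adjusted p = 0.309). Scarb1 stood at 248, 215, 248 and 196 CPM, also below every WT library (-0.56 ± 0.08 SE, adjusted p = 0.0846). These comparisons use the same WT libraries as those of 200M. Set directly against each other, young 200M and 200H ovaries differed at 0 of 31 members and 0% of 19259 genes in edgeR's test. There, 1 member and 648 of all genes had an unadjusted p under 0.05, and DESeq2 called 0 members and 0 genes.

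In older ovary the picture was wider and noisier. The paper reports that most females with the allele on both chromosomes bore no litter in the breeding trial. It also reports few corpora lutea in their ovaries. In the older cohort, litter history therefore went with genotype, and its part in the differences between 200M and WT was not tested. Apoe rose in 200M and Fdps fell, 1 member in each direction (edgeR's quasi-likelihood test), which is 6.45% of 31 beside 2.71% of the 17792 genes tested, where 1.52% were higher and 1.19% lower. The log2 fold change was negative for 23 members and for 16 of the 17 synthesis enzymes, with medians of -0.35 and -0.40, beside 0.04 over all genes. Only Fdps among these enzymes passed the test. Older 200H, set against the same WT libraries, was also negative for 21 members and for 15 of the 17 enzymes. Its medians were -0.17 and -0.25, beside 0.02 over all genes. At an unadjusted p under 0.05 there were 8 members in 200M, and DESeq2 called 5 of 31, namely Apoe, Fdps, Dhcr7, Scarb1 and Sc5d. Of all 17792 genes tested, 2944 had such a p, and DESeq2 called 1324 genes.

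Apoe encodes apolipoprotein E, which carries cholesterol out of macrophages, glia and steroidogenic cells (ENSMUSG00000002985, minus strand, chr7:19696109-19699188). Its level was 631, 620.2, 1026 and 1009 CPM in older WT ovary and 3100, 2558, 1992 and 2315 CPM in 200M. All 200M libraries were well above all WT libraries, a 3.03-fold rise (log2 fold change 1.60 ± 0.23 SE, adjusted p = 0.0123, edgeR). Without WT replicate 2 the adjusted p was 0.0521, and with any other library left out the call held. Without 200M replicate 3, the library high in oviduct and adipocyte markers, it was 1.67 on the log2 scale (adjusted p = 0.0131). The 200H libraries, at 1410, 1019, 1262 and 812 CPM, overlapped WT (0.46, adjusted p = 0.748, and 0.58 with 0.599 without the oviduct-high 200H replicate 4).

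In young ovary the same gene stood at 140.4, 121, 165 and 149.9 CPM in WT and 146, 169.9, 183 and 149.7 CPM in 200M, groups that overlapped. The 200M effect on Apoe in older ovary exceeded that in young ovary by 1.41 on the log2 scale (SE 0.26, adjusted p = 0.0402, edgeR's test of the difference). It was the only member called there (3.23% of 31, beside 0.197% of 21786 genes), and it lost its call in 10 of 16 fits that each left out 1 library. Age, breeding history and library method differ together between the cohorts, so their parts cannot be told apart.

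**Figure D2:**
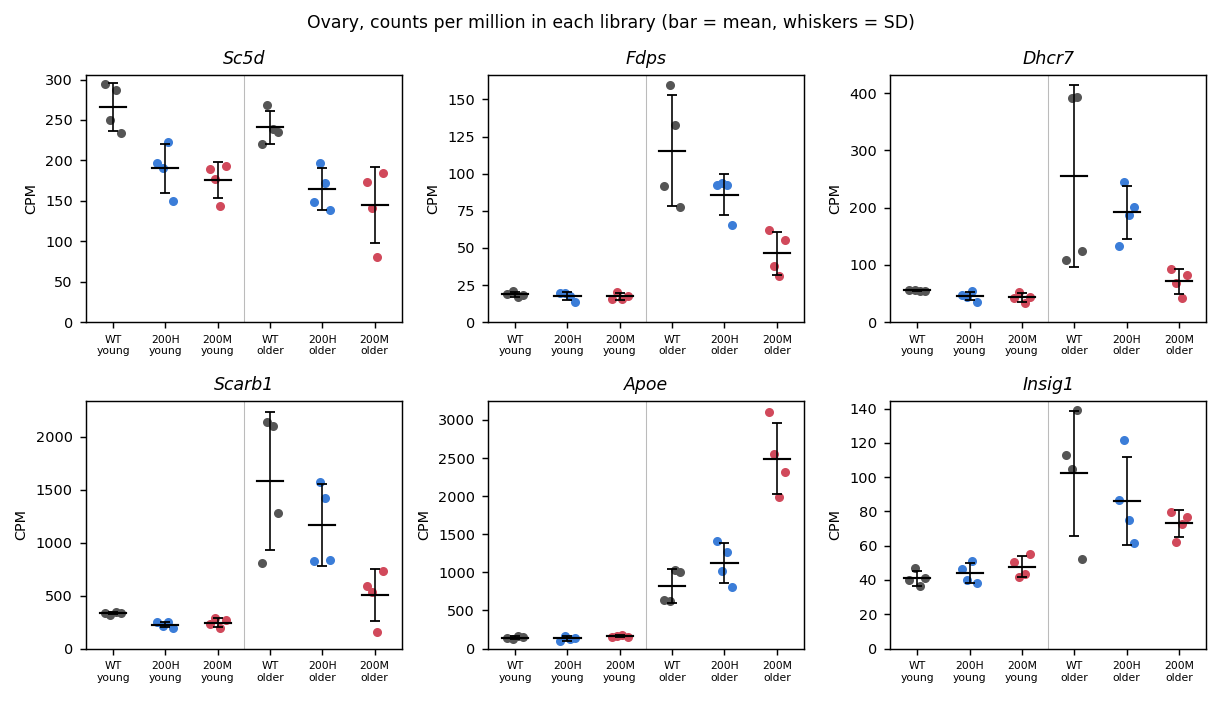
CPM of Sc5d, Fdps, Dhcr7, Scarb1, Apoe and Insig1 in each ovary library of WT, 200H and 200M, young on the left of each panel and older on the right; points are libraries, bars are means and whiskers are SD (n = 4 in each group). Apoe in older 200M ovary, between 1992 and 3100 CPM, stands above all other ovary libraries, and Sc5d is highest in WT in both cohorts.

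Fdps encodes the farnesyl diphosphate synthase of the mevalonate arm (ENSMUSG00000059743, minus strand, chr3:89093588-89101959). It stood at 91.8, 159.5, 133 and 77.8 CPM in older WT ovary and 61.8, 37.9, 30.9 and 55.1 CPM in 200M. The 200M libraries were all lower, a 2.49-fold fall (log2 fold change -1.32 ± 0.28 SE, adjusted p = 0.0466, edgeR). The call sits at the threshold: it was lost in 7 of 8 fits that left out 1 library, and without 200M replicate 3, which was high in oviduct markers, the log2 fold change was -1.18 with an adjusted p of 0.0689. Fdps shares 1124 exon bases with Gm43738 on the same strand, so its counts are uncertain. In young ovary it lay between 17.2 and 21.3 CPM in WT and between 15.4 and 20.6 CPM in 200M.

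Dhcr7 (ENSMUSG00000058454, plus strand, chr7:143823145-143848410) makes cholesterol from its last precursor. It stood at 109, 391, 393 and 125 CPM in older WT ovary, 133, 245, 188 and 202 CPM in 200H and 92.8, 68.8, 42.6 and 83.1 CPM in 200M. The WT libraries split into a high and a low pair, and all 200M libraries lay below both. Against WT the log2 fold change was -1.83 ± 0.46 SE with an adjusted p of 0.0789 in edgeR's test, and DESeq2 gave 0.000731. Without 200M replicate 3 edgeR gave -1.66 (adjusted p = 0.128).

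Scarb1 stood at 809, 2141, 2101 and 1275 CPM in older WT ovary and 590.1, 530.0, 156 and 729 CPM in 200M. Again every 200M library was below every WT library, yet the WT spread was large (log2 fold change -1.66 ± 0.47 SE, adjusted p = 0.107, edgeR). Sc5d stood at 220.4, 268, 239 and 236 CPM in WT, 149, 197, 172 and 139 CPM in 200H and 173, 141, 80.3 and 184 CPM in 200M. Neither mutant group overlapped WT for Sc5d, and neither passed edgeR's test (-0.54 ± 0.11 SE in 200H, adjusted p = 0.748, and -0.74 ± 0.23 SE in 200M, adjusted p = 0.142). Without 200M replicate 3 the 200M values were -1.38 for Scarb1 and -0.55 for Sc5d (adjusted p = 0.0803 and 0.0654).

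With these, 4 members lay wholly below WT in older 200M ovary (12.9% of 31: Fdps, Dhcr7, Sc5d and Scarb1) and 1 wholly above (3.23%: Apoe). Over all genes tested, 5.55% were wholly below and 6.44% wholly above. Sc5d was thus below WT in each of the 4 ovary comparisons of a mutant genotype with WT, of which those within a cohort share their WT libraries. The enzymes with the largest unadjusted p were Mvk, the mevalonate kinase (log2 fold change -0.03), and Fdft1, the squalene synthase (0.06), whose exons overlap those of Ctsb on the other strand in libraries that did not record strand.

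None of the 5 regulators passed in older 200M ovary, where the test called 4.5% of simulated 1.5-fold changes, so changes of that size can be missed. Insig1 stood at 113, 105, 139 and 52 CPM in WT and 79.9, 62.4, 72.9 and 76.7 CPM in 200M, with the 200M values inside the WT range (log2 fold change -0.48). Srebf2 stood at 279, 275, 243 and 244 CPM in WT and 264, 154, 215 and 242 CPM in 200M, overlapping groups (-0.25). Insig2 stood at 46.6, 49.9, 40.2 and 49.6 CPM in WT and 40.5, 27.6, 36.3 and 40.7 CPM in 200M, with a narrow overlap (-0.36).
Srebf1 stood at 138, 152, 114 and 133 CPM in WT and 131, 101, 230.0 and 131 CPM in 200M, with 200M replicate 3 far above the rest. Its log2 fold change was 0.15, and -0.17 without that library. Scap stood at 347, 518, 392 and 462 CPM in WT and 401, 399.6, 282 and 446 CPM in 200M (-0.17), overlapping groups. Without 200M replicate 3 the other 4 stood at -0.50 (Insig1), -0.26 (Srebf2), -0.38 (Insig2) and -0.07 (Scap), and none passed.

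Cell type markers moved in the same libraries. The luteal list (9 markers of corpus luteum) summed to 14380 to 37330 CPM in older WT ovary, 17280 to 30570 CPM in 200H and 5105 to 13180 CPM in 200M, without overlap of 200M and WT, and 5 of 9 fell (Akr1c18, Sfrp4, Ptgfr, Star and Runx2) with a median of -3.67 on the log2 scale. In young ovary the luteal sum was 7857 to 10430 CPM in WT, 5463 to 8189 CPM in 200H and 5391 to 8884 CPM in 200M, and 3 of 9 fell in 200M (Prlr, Akr1c18 and Cyp11a1; median -1.52). The macrophage list (7 markers) summed to 240.7 to 452.9 CPM in older WT, 300.2 to 405.5 CPM in 200H and 485.1 to 939.8 CPM in 200M, with 0 of 7 called and a median of 0.73. In young ovary the macrophage sum was 194.4 to 254.1 CPM in WT and 178.2 to 193.6 CPM in 200M, and 1 of 7 fell (Mrc1, -0.51 on the log2 scale). Against 200H, 1 of 7 rose in older 200M (Cd68). The mitochondrial share was 9.356 to 9.748% in young WT ovary and 7.549 to 8.89% in young 200M, without overlap. No marker of these lists was at 0 in every library of an ovary group, and no marker of the luteal or macrophage list is a member. Insl3, of the theca list, rose in older 200M ovary (1.60 ± 0.23 SE on the log2 scale, adjusted p = 0.012, edgeR). Nr5a2, of the granulosa list, rose in young 200M ovary (0.39 ± 0.10 SE, adjusted p = 0.0473, edgeR). No other marker of either list passed in 200M against WT ovary. The part of luteal, macrophage, theca or granulosa content, or of the mitochondrial share, in the values of Scarb1, Sc5d, Fdps, Dhcr7 and Apoe was not tested.

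**Figure D3:**
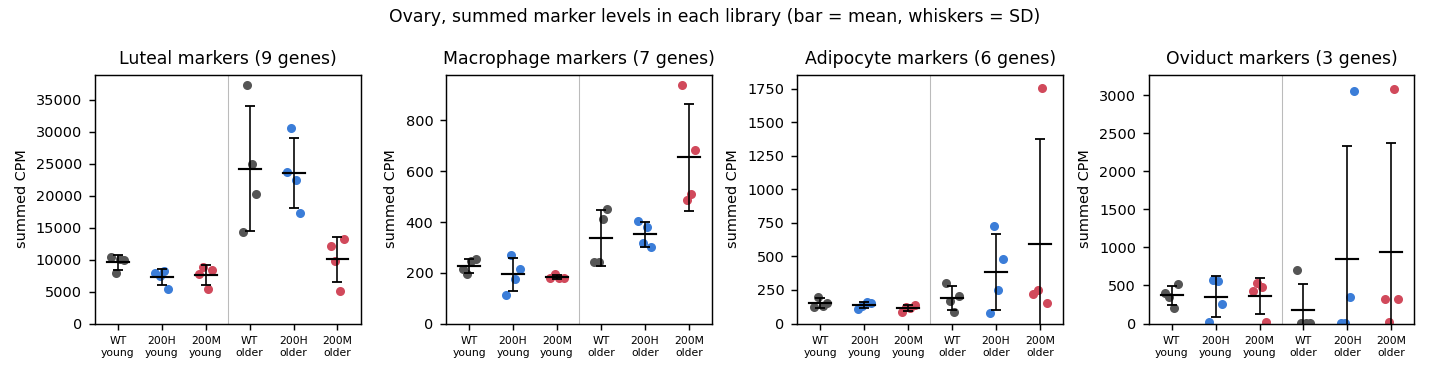
Summed CPM of the luteal (9 genes), macrophage (7 genes), adipocyte (6 genes) and oviduct (3 genes) marker lists in each ovary library, young on the left and older on the right of each panel; bars are means and whiskers are SD (n = 4 in each group). In older 200M ovary the luteal sum was 5105 to 13180 CPM, below all older WT libraries, and 1 older library each of 200H and 200M stands far above the others for oviduct markers.

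Against 200H, older 200M ovary had 2 called members (6.45% of 31, beside 1.61% of 17855 genes). Dhcr7 fell (log2 fold change -1.44 ± 0.25 SE, adjusted p = 0.0298, edgeR) and Apoe rose (1.13 ± 0.21 SE, adjusted p = 0.0382), each without overlap of the groups. The Dhcr7 call was lost in 6 of 8 fits that left out 1 library and the Apoe call in 7 of 8. Without the 2 libraries high in oviduct markers, Dhcr7 stood at -1.22 (adjusted p = 0.0503) and Apoe at 1.10 (0.0409). In older 200H against WT, edgeR called 0 of 31 members and 0% of 17605 genes, with 3 members at an unadjusted p under 0.05 and 1, Sc5d, called by DESeq2. Among all genes tested, 1160 had such a p, and DESeq2 called 21 genes. Without 200H replicate 4 edgeR again called 0, and Sc5d stood at -0.48 (adjusted p = 0.599).

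Beyond the 31 members, 37 further genes of cholesterol uptake, transfer, storage, liver X receptor response and SREBP-driven lipid synthesis were followed. In young 200M ovary 1 of the 36 tested fell, Plin2, which coats lipid droplets, and 0 rose, beside 2.58% of all genes called. Its levels were 58.23 to 82.31 CPM in WT and 42.58 to 62.66 CPM in 200M, overlapping groups (log2 fold change -0.51 ± 0.12 SE, adjusted p = 0.0448, edgeR), and the call was lost in 6 of 8 fits that left out 1 library. In older 200M ovary 1 of 37 fell, Lrp8, a receptor for apolipoprotein E and reelin, and 0 rose, beside 2.71% of all genes called. Both counts lie near the background and give no result about the 37 genes as a group. Lrp8 stood at 36.68 to 73.46 CPM in WT and 12 to 23.46 CPM in 200M (log2 fold change -1.68 ± 0.28 SE, adjusted p = 0.0192), a call lost in 4 of 8 such fits. Without 200M replicate 3 Lrp8 stood at -1.57 (adjusted p = 0.0314). In young ovary Lrp8 stood at 26.8 to 31.09 CPM in WT and 14.78 to 24.72 CPM in 200M, also apart, with an adjusted p of 0.052. No gene of the 37 passed in 200H against WT or 200M against 200H in ovary.

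In pituitary, member changes were small and about as frequent as those of all genes. Young 200M pituitary had 4 members higher and 2 lower than WT (19.4% of 31), where 21.5% of 18199 genes were called, 11.5% higher and 10.0% lower. Young 200H pituitary had 3 higher and 2 lower (16.1%), beside 12.3% of 18051 genes, 6.56% higher and 5.72% lower. These shares near the background give no result about the members as a group. Within a cohort, the comparisons of 200M and of 200H with WT share their WT libraries. The mitochondrial share of counts also stood apart from WT in pituitary, at 5.114 to 5.307% in young WT, 6.092 to 6.807% in 200H and 6.078 to 7.184% in 200M, and at 0.808 to 1.205%, 1.297 to 1.357% and 1.329 to 1.376% in the older cohort. Its part in these values was not tested.

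Soat1, which esterifies cholesterol for storage, stood at 193, 191 and 178 CPM in young WT pituitary, 142, 149.5, 134 and 132 CPM in 200H and 157, 145, 143 and 136 CPM in 200M. Every mutant library was below every WT library (log2 fold change -0.42 in 200H, adjusted p = 0.00179, and -0.35 ± 0.06 SE in 200M, adjusted p = 0.00113). Apoe stood at 42.9, 36.5 and 36.7 CPM in WT, 46.5, 54.5, 64.2 and 53.6 CPM in 200H and 48.6, 54.6, 53.9 and 47.2 CPM in 200M. All mutant libraries were higher (0.51 in 200H, adjusted p = 0.00989, and 0.42 ± 0.09 SE in 200M, adjusted p = 0.00376). Abca1 stood at 203, 185 and 172 CPM in WT, 213, 247, 317 and 246 CPM in 200H and 205, 281, 252 and 236 CPM in 200M. Its mutant libraries were likewise all above WT, by 0.46 in 200H and 0.40 ± 0.09 SE in 200M on the log2 scale (adjusted p = 0.018 and 0.00678).

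Npc1, which moves cholesterol out of lysosomes, stood at 103, 97.5 and 97.5 CPM in WT, 119.5, 121, 125 and 116 CPM in 200H and 112, 119, 118 and 107 CPM in 200M. It rose in both (0.29 and 0.22, adjusted p = 0.0153 and 0.0271). Srebf1 stood at 65.1, 66.8 and 79.6 CPM in WT, 53.2, 50.7, 54.1 and 46.1 CPM in 200H and 62.3, 52.7, 55.2 and 60.1 CPM in 200M. It fell in both (-0.45 and -0.28, adjusted p = 0.00635 and 0.0355). Srebf2 stood at 86.9, 79.8 and 83.5 CPM in WT, 94.8, 92.2, 95.2 and 77.1 CPM in 200H and 103, 91.7, 102 and 106 CPM in 200M. It passed only in 200M (0.29 ± 0.07 SE, adjusted p = 0.0102), where all libraries were above WT. When single libraries were left out, Npc1 in 200M lost its call in 4 of 7 fits and Srebf1 in 200M in 3 of 7. In 200H, leaving out the WT library whose column number matches no sample title removed the calls of Abca1, Apoe and Npc1 (adjusted p = 0.0945, 0.0571 and 0.0745), and leaving out WT replicate 2 removed that of Abca1. Without the same unmatched library 4 members were called in 200M and 2 in 200H, and Srebf1 and Npc1 lost their 200M calls (adjusted p = 0.205 and 0.0974).

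**Figure D4:**
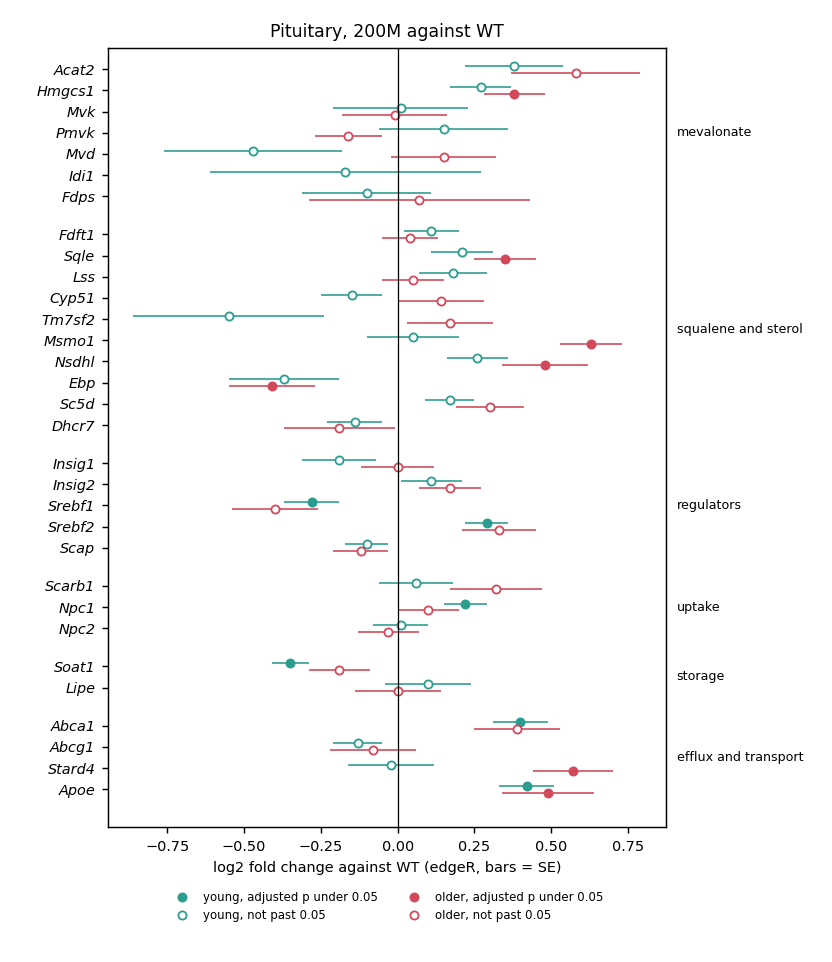
Log2 fold change of 200M against WT in pituitary for each member, grouped by role, with young and older cohorts in separate colours; points are edgeR estimates, bars are standard errors and filled points passed an adjusted p of 0.05. Filled points number 6 (young) and 7 (older), Apoe is filled in both, and Idi1 has no older estimate because its counts were too low in that comparison.

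In older pituitary, 30 members could be tested against WT, Idi1 being too low there. In 200M, 6 rose and 1 fell (23.3% of 30), beside 21.4% of 14711 genes, 11.7% higher and 9.77% lower. In 200H, 4 rose and 0 fell (13.3%), beside 12.2% of 14922 genes, 7.09% higher and 5.14% lower. Msmo1, the sterol methyl oxidase whose promoter is printed above, stood at 17.8, 19.5, 19.2 and 18.6 CPM in WT, 21.2, 26.9, 25.2 and 23.7 CPM in 200H and 28, 30.3 and 29 CPM in 200M. The genotypes did not overlap, and Msmo1 rose by 0.37 in 200H (adjusted p = 0.0421) and 0.63 ± 0.10 SE in 200M (adjusted p = 0.00111), the latter call holding with any library left out. In young pituitary Msmo1 stood at 12.7, 13.7 and 13 CPM in WT and 14, 10.6, 13.3 and 16.3 CPM in 200M, overlapping groups.

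Stard4, a cytosolic sterol carrier, stood at 11.9, 12.3, 13.1 and 11.3 CPM in older WT pituitary, 14, 15.5, 20.6 and 17.8 CPM in 200H and 16.6, 17.4 and 20.1 CPM in 200M. Both mutant groups were above WT (0.47 in 200H, adjusted p = 0.045, and 0.57 ± 0.13 SE in 200M, adjusted p = 0.00985), and the 200M call was lost without 200M replicate 3. Apoe stood at 247, 259.7, 237 and 358 CPM in WT and 362, 337 and 459 CPM in 200M. These Apoe groups overlapped through WT replicate 4 (0.49 ± 0.15 SE, adjusted p = 0.0323, lost in 5 of 7 fits that left out 1 library). The 4 further members called in older 200M pituitary, beyond the 8 chosen for full values, were Hmgcs1 (0.38), Sqle, the squalene epoxidase (0.35), Nsdhl, a sterol dehydrogenase (0.48), and Ebp (-0.41), with adjusted p of 0.0172, 0.0226, 0.0321 and 0.0493. Hmgcs1 lost its call in 2 of 7 such fits, Sqle in 4, and Nsdhl and Ebp in 5 each. Hmgcs1 shares 557 exon bases with Gm48342 on the other strand, and the older libraries did not record strand. In older 200H, the further calls were Hmgcs1 (0.32, adjusted p = 0.0316) and Acat2, the cytosolic thiolase (0.62, adjusted p = 0.0453), and all 4 calls of older 200H were lost in 6 or 7 of 8 such fits.

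Soat1, Srebf1, Srebf2, Abca1 and Npc1 did not pass edgeR's test in older pituitary. Their 200M log2 fold changes against WT were -0.19, -0.40, 0.33, 0.39 and 0.10 there. In these unstranded libraries, exons of Srebf1 overlap those of Rai1, and exons of Npc1 those of Rmc1, on the other strand. DESeq2 also called 7 members in older 200M, which included Srebf1 and Abca1 (adjusted p = 0.035 and 0.0418) and left out Nsdhl and Ebp. It called 2775 genes in that comparison. Between 200M and 200H, edgeR called 0 members in either pituitary cohort, beside 0.0383% of 18271 genes (young) and 0.121% of 14862 genes (older). In each cohort 3 members had an unadjusted p under 0.05, as did 1081 of all genes (young) and 1575 (older). DESeq2 called 0 members in each, beside 44 genes (young) and 125 genes (older). Of the further pathway genes, 14 rose and 3 fell among 35 tested in young 200M pituitary (48.6%, beside 21.5% of all genes), and 8 rose and 3 fell in 200H (31.4%, beside 12.3%). In older pituitary 9 rose and 3 fell in 200M (34.3%, beside 21.4%), and 6 rose and 1 fell in 200H (20%, beside 12.2%). No test compared these shares with the background. Lrp8 rose in 200M pituitary (0.40 ± 0.08 SE young, 0.46 ± 0.09 SE older), the opposite sign of its ovary values. In the same libraries the lactotrope list (Prl, Pou1f1 and Drd2) summed to 134400 to 159000 CPM in young WT, 29220 to 62550 CPM in 200H and 39730 to 61920 CPM in 200M. In older pituitary the lactotrope sum was 168600 to 211200 CPM in WT, 59010 to 119400 CPM in 200H and 53250 to 72710 CPM in 200M, so it did not overlap WT in either mutant. Its markers did not fall alike. In young 200M the log2 fold change was -1.61 for the hormone gene Prl, -0.39 for Pou1f1 and -0.50 for Drd2. In older 200M only Prl passed (-1.66). The macrophage sum was 40.32 to 49.47 CPM in young WT and 59.02 to 70.71 CPM in young 200M, and 96.3 to 121.1 CPM in older WT and 133.3 to 187.6 CPM in older 200M. The astrocyte list (4 markers) summed to 43.11 to 48.22 CPM in young WT and 50.53 to 52.26 CPM in 200M, and to 37.93 to 44.61 CPM in older WT and 68.99 to 72 CPM in 200M. Of its markers, Aldh1l1 rose in young 200M and Aldh1l1 and Gfap rose in older 200M. The neuron list (6 markers) summed to 875.7 to 932.6 CPM in young WT and 979.5 to 1095 CPM in 200M, and to 583.8 to 664.1 CPM in older WT and 866.3 to 922.5 CPM in 200M. Of its markers, Snap25, Syt1 and Tubb3 rose in young 200M and Slc17a6 fell (-0.67 on the log2 scale). Rbfox3, Snap25, Syt1 and Tubb3 rose in older 200M. Of the 3 corticotrope markers, 2 rose in 200M in each cohort. The part of these cell types in the pituitary values of the members was not tested.

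In hypothalamus no member passed edgeR's test in any of the 6 comparisons. Across all genes, 0.02% were called in young 200M against WT, 0.0202% in young 200H against WT, 0% in young 200M against 200H, 0.00622% in older 200M against WT, 0% in older 200H against WT and 0% in older 200M against 200H. Members at an unadjusted p under 0.05 numbered 2, 2, 3, 8, 0 and 8 in that order, and DESeq2 called 0, 0, 0, 1, 0 and 1. Among all genes, 847, 585, 682, 2904, 445 and 3144 had such a p, and DESeq2 called 0, 1, 0, 632, 5 and 637. The 2 comparisons of older 200M tested 16067 and 16156 genes in edgeR, so these member counts do not set the members apart. Log2 fold changes of 200M against WT ran from -0.16 to 0.46 in young and from -0.56 to 0.43 in older hypothalamus. The member that DESeq2 called in older hypothalamus, picked out here after its values were seen, was Abca1. It stood at 59.2, 58.7, 66.5 and 67.1 CPM in WT, 63.1, 51.8, 63.8 and 62 CPM in 200H and 46.9, 37 and 44.9 CPM in 200M. All 3 Abca1 libraries of 200M were below the rest (-0.56 against WT, adjusted p = 0.098, edgeR). In young hypothalamus Abca1 overlapped between WT, at 125, 126, 121 and 120.2 CPM, and 200M, at 143, 122, 119 and 112 CPM.

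Whether the 200M effect differed between ovary and pituitary was tested directly. In the young cohort 3 members differed (9.68% of 31, beside 10.1% of 22130 genes), a share near the background. Sc5d was lower in 200M ovary relative to pituitary (difference of log2 fold changes -0.77 ± 0.14 SE, adjusted p = 0.00128, edgeR), as was Abca1 (-0.64 ± 0.13 SE, adjusted p = 0.00329), and both held with any of 15 libraries left out. Srebf1 was higher (0.46 ± 0.13 SE, adjusted p = 0.0236), lost in 3 of 15 such fits. In the older cohort 2 members differed (6.45%, beside 5.77% of 18736 genes): Sc5d again lower (-1.06 ± 0.28 SE, adjusted p = 0.0409) and Apoe higher (1.09 ± 0.30 SE, adjusted p = 0.0462), each lost in 11 of 15 such fits. These tests reuse the libraries of the comparisons above. They treat ovary and pituitary libraries as independent, and the labels do not say whether both tissues came from the same mice.

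In young WT mice, Scarb1, Soat1, Abca1, Lipe, Sc5d and Scap were higher in ovary than in both other tissues. Against WT pituitary, 15 members were higher and 7 lower in ovary (71.0% of 31), beside 68.3% of 20111 genes, 35.6% higher and 32.7% lower. Against WT hypothalamus 7 were higher and 14 lower (67.7%), beside 76.7% of 17994 genes, 40.6% higher and 36.1% lower. The totals of both directions are near the background. By direction, the members leaned to higher against pituitary and to lower against hypothalamus, and no test compared this lean with the background. These fits, too, treat the tissues as independent. Of the 17 synthesis enzymes, 9 were higher and 3 lower than in pituitary, but 1, Sc5d, was higher and 7 were lower than in hypothalamus.

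Scarb1 was 13.7-fold above pituitary and 18.8-fold above hypothalamus, with 336, 318, 344 and 338 CPM in ovary, 23.6, 23.4 and 18.6 CPM in pituitary and 11.3, 14.5, 17.1 and 15.7 CPM in hypothalamus. Soat1 was 5.88-fold and 10.2-fold above, with 1260, 1110, 1246 and 1292 CPM in ovary against 193, 191 and 178 CPM in pituitary and 102, 98.2, 93.6 and 103 CPM in hypothalamus. No library of either other tissue reached the ovary range for Scarb1 or Soat1. Abca1 was 3.5-fold and 4.89-fold above, and Lipe 2.86-fold and 4.01-fold above. Sc5d was 3.72-fold above pituitary and, by less, above hypothalamus (log2 fold change 0.50). Scap was above pituitary by 0.77 and above hypothalamus by 1.10 on the log2 scale. Abcg1, a pump that passes cholesterol to lipoprotein, was 4.05-fold lower in ovary than in pituitary. Apoe was 3.35-fold above pituitary and below hypothalamus (log2 fold change -0.94).

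Per kilobase of exon, so that genes can be set side by side, Soat1 was the highest member in young WT ovary at 125 ± 8.21 CPM per kb (SD, n = 4). Abca1 (70.2 ± 7.51), Apoe (67.4 ± 8.65), Sc5d (54.7 ± 6.02) and Scarb1 (39.3 ± 1.36 CPM per kb) followed, and Tm7sf2 was lowest at 0.616 CPM per kb. The SD ranges of Abca1 and Apoe overlapped, as did those of Apoe and Sc5d, whereas Soat1 and Scarb1 stood apart from the members next to them in this order. In older WT ovary the order began with Apoe (384 CPM per kb), Scarb1 (186) and Soat1 (108), from libraries made by another method. Soat1 also led in young pituitary at 19.2 CPM per kb, and Apoe led in young hypothalamus at 107 CPM per kb.

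**Figure D5:**
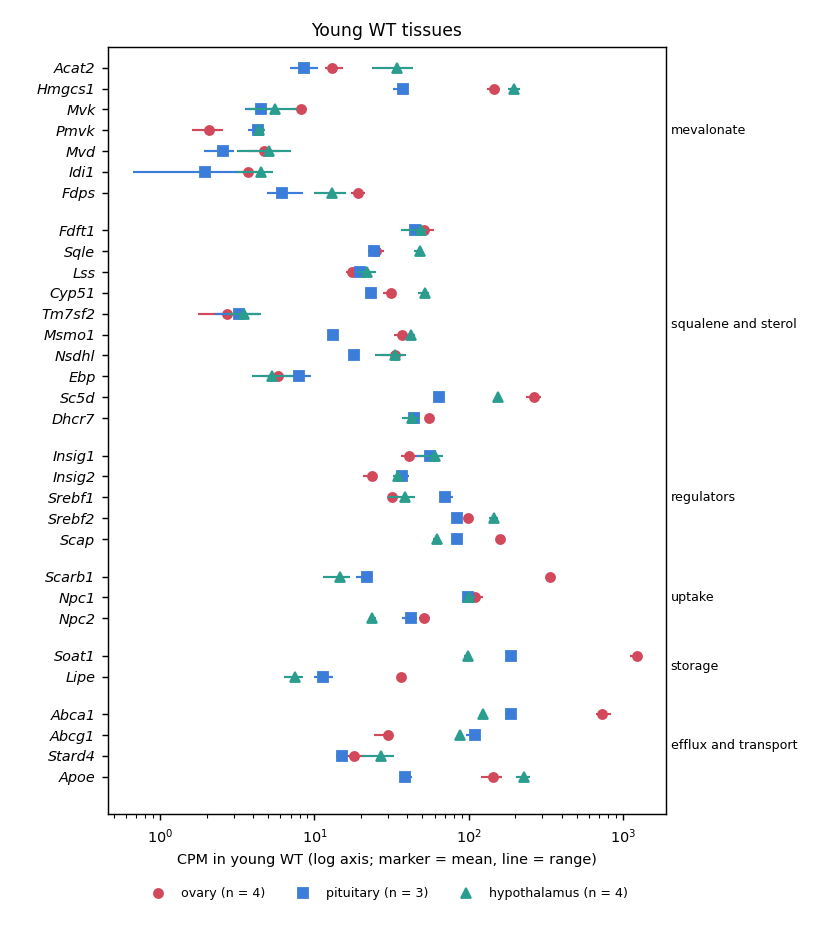
CPM of each member in young WT ovary, pituitary and hypothalamus on a log axis, grouped by role; markers are means and lines run from the lowest to the highest library (n = 4, 3 and 4). In ovary Scarb1, Soat1, Lipe, Abca1, Sc5d and Scap stand to the right of both other tissues, and Abcg1 stands to the left of both.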

How the data were processed

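RNA-seq was analysed from 69 libraries of ovary, pituitary and hypothalamus. Per the study's methods, young libraries were rRNA-depleted, stranded and paired end, and older libraries were poly(A)-selected, single end and unstranded. Reads were aligned with STAR 2.7.1a to mm10 and counted with featureCounts, or with HTSeq 0.9.1 for older pituitary and hypothalamus. The unit is the raw count: the authors deposited whole-number counts per gene in 18 tables, and 3 WT columns of the young pituitary 200H table, of which 2 carry the same name, were not used. Columns of the authors' own DESeq2 fold changes and p-values were not used.

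CPM was computed from each library's total multiplied by its TMM factor, fitted over the 3 genotypes of a tissue and cohort. Each comparison was fitted across all genes with edgeR 4.0.16 in R 4.3.3 (filterByExpr, TMM, glmQLFit, glmQLFTest, Benjamini-Hochberg) on the 2 groups compared and called at an adjusted p under 0.05. Counts with known changes were simulated for 200M against WT in young ovary, older ovary and older pituitary. Of simulated 1.5-fold changes the test called 67.2%, 4.5% and 74.6% in that order. Of 2-fold changes it called 92.5%, 31.3% and 97%. Differences between effects used an interaction term. DESeq2 1.42.0 was an alternative, with no filter, RLE scaling, all genotypes in 1 fit, a replicate block and each library left out. Members and lists were chosen with earlier results of these data known. Full values are given for members called in 200M against WT ovary, for the 8 with the smallest p of those called against WT in pituitary, for members called between mutants or in 200H ovary, and for the regulators in ovary. Over 99 pairs of libraries within groups, the lowest chi-square per degree of freedom was 1.99, so none was a copy. Within a tissue, replicate numbers did not pair the libraries, and across tissues this was not checked. In young WT pituitary, 1 column, numbered 3 where the titles give 4, was assigned to its group only. Depth limits low genes: Idi1 was not tested against WT in older pituitary.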

Additional observations from a re-analysis of the deposited data

Results flagged for a closer look

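In the 162 sets of 4 libraries checked, 7 had a library standing far from the other 3, where chance gives about 5% of sets. In ovary these were Insig2 in young WT replicate 2 (lowest, 20.64 CPM), the summed squalene and sterol enzymes in young 200M replicate 3 (lowest, 357.5 CPM), the summed regulators in young 200M replicate 3 (lowest, 342.7 CPM) and the summed regulators in older WT replicate 2 (highest, 1100 CPM). In pituitary the summed efflux and transport genes stood high in older 200H replicate 2 (612.1 CPM) and older WT replicate 4 (621.1 CPM). In hypothalamus the summed mevalonate enzymes stood low in young 200M replicate 1 (225.6 CPM).

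The 200M effect differed by the test of the difference itself, edgeR's interaction term, in 6 instances. Between cohorts of ovary, Apoe differed by 1.41 on the log2 scale, older minus young. Between young ovary and pituitary, Sc5d differed by -0.77, Abca1 by -0.64 and Srebf1 by 0.46. Between older ovary and pituitary, Sc5d differed by -1.06 and Apoe by 1.09.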

How the results depend on the processing

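Counts of members called are given for each alternative that moved them by over 1.5 times. With the replicate number as a block, the count fell from 2 to 1 in young ovary 200M against WT, from 2 to 0 in older ovary 200M against WT and 200M against 200H, from 6 to 3 and 5 to 2 in young pituitary 200M and 200H against WT, from 4 to 0 in older pituitary 200H against WT, and from 1, 3 and 2 to 0, 1 and 0 for the differences older minus young ovary, ovary minus pituitary young and older, and it rose from 0 to 1 in young hypothalamus 200M against WT. Within a tissue and cohort, same-numbered libraries deviated together weakly or not at all (r from -0.629 to 0.423 over all tissues and cohorts, over 0.1 in at most 5 of 12 pairs), so the numbers do not pair the mice of different genotypes. DESeq2 called 2 in young ovary 200H against WT, 5, 1 and 4 in older ovary 200M against WT, 200H against WT and 200M against 200H, 2 in older pituitary 200H against WT, 1 each in older hypothalamus 200M against WT and against 200H, and 2, 5 and 6 for the 3 differences. Among all genes DESeq2 called 76, 1324, 21, 875, 1944, 632, 637, 355, 2601 and 1699 in that order. Without the filter on low counts, 2 were called in young ovary 200H against WT, 1 in older pituitary 200M against 200H, 1 each in young and older hypothalamus 200M against WT and 3 in older hypothalamus 200M against 200H. With all genotypes in 1 fit, 1 was called in young ovary 200M against WT and 1 in older ovary 200M against 200H.

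Alternatives chosen after seeing the data were a length trend, removed as an offset, and the omission of the 2 older ovary libraries high in oviduct markers. The first left 1 call in young ovary 200M against WT, 1 in older ovary 200M against 200H and 2 in older pituitary 200H against WT, and the second left 1 each in older ovary 200M against WT and against 200H. With each library left out in turn, the count ran from 1 to 4 in young ovary 200M against WT, 0 to 1 in young ovary 200H, 0 to 3 in older ovary 200M, 0 to 2 in older ovary 200M against 200H, 4 to 7 and 2 to 6 in young pituitary 200M and 200H, 2 to 9 and 0 to 4 in older pituitary 200M and 200H, 0 to 1 in older pituitary 200M against 200H and in young and older hypothalamus 200M, and 0 to 2, 2 to 6 and 0 to 5 for the differences. Changes of sign arose only in genes that did not pass: Srebf2 in young 200M (-0.04 to 0.04 without a library, 0.0 with the length trend) and 200H (-0.10 to 0.04), Scap in young 200H (-0.04 to 0.11 without a library, -0.01 without the filter) and older 200H (-0.02 to 0.18), Srebf1 in older 200M (-0.17 to 0.29, and -0.17 without the libraries high in oviduct markers), Insig2 in older 200H (-0.01 to 0.12) and Plin2 in older 200M (-0.05 to 0.24). RLE scaling moved no count by over 1.5 times. Where a call was lost with fewer libraries, fewer samples were fitted, and other causes were not tested.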
